A study of Mus musculus with 10 samples.

Results

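Genes named Tex (testis expressed) or Spata (spermatogenesis associated) carry a name given for where their transcripts were found, not for a shared function. All symbols of the annotation that begin with Tex or Spata and a number were taken, 69 in all, and Tex11, Tex12 and Spata22 were left out by the rule, which left 66 genes (37 Tex and 29 Spata) of 32285 listed. The rule reads gene names alone. The study compared germ cells of mice that lack the chromatin remodeler SMARCA5, an ISWI ATPase that slides nucleosomes, with wild type. Knockout (cKO) animals had the genotype Smarca5 fl/delta with Ddx4-Cre, a Cre driven in germ cells from before birth, so that the somatic cells of these testes keep the floxed allele. Wild type was C57BL6; the strain of the cKO mice is not named in the labels, so strain and genotype cannot be told apart. Single-cell RNA came from whole testes of 2 cKO samples, with no wild-type sample beside them, so RNA levels are described in cKO testes alone. ATAC-seq, which reads open chromatin, covered 8 libraries made from 50000 cells each: 4C cKO, 4C WT, cKIT+ cKO and cKIT+ WT, 2 libraries each. The 4C cells, sorted on DNA content with Hoechst, are pachytene or pachytene-like cells per the labels; cKIT marks differentiating spermatogonia. The labels of the cKIT+ libraries give no cell type, and their protocol text names both sorts; they are called cKIT+ because that text and the series design name cKIT+ cells and the other 4 libraries are labelled pachytene. Every 4C against cKIT+ value rests on that reading. No label states whether replicates are different animals, and p values therefore measure only the spread between samples, which may be technical.

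Spermatogenesis runs from dividing spermatogonia through the long meiotic prophase to haploid round spermatids, which condense their nucleus and build an acrosome and a tail as they elongate. Many genes of this programme are used in the testis only, and a large share of them is switched on around meiosis or after it. Transcription of the X chromosome is silenced in pachytene spermatocytes, and some X-linked genes are read again in spermatids.

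The 57 Tex and Spata genes with both a position and a RefSeq promoter differed in where accessible chromatin covered that promoter. The promoters of Spata16, Spata21 and Spata20 were covered by a peak in all 4 4C libraries and in no cKIT+ library, beside 1.23% of all 20267 genes with a promoter. That of Tex19.2 was covered in all 4 cKIT+ libraries and in no 4C library, beside 0.72% of all genes. Their sequences from RefSeq (GRCm38.p6, the patched mm10 build) are shown for that reason, 250 bases before to 50 bases after the annotated start, in the direction of transcription. They lie at chr3:26637381-26637680 (plus strand) for Spata16, chr4:141088095-141088394 (plus strand) for Spata21, chr11:94485261-94485560 (minus strand) for Spata20 and chr11:121118628-121118927 (minus strand) for Tex19.2. Capitals mark the core motif of the MYB family, CAACNG, on either strand; the transcription factor A-MYB is a known driver of pachytene genes.
Spata16: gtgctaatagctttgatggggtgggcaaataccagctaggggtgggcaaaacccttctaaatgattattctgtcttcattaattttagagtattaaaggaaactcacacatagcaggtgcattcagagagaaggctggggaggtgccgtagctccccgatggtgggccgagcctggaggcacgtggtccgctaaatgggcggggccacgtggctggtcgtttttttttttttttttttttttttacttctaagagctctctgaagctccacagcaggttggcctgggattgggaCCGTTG
Spata21: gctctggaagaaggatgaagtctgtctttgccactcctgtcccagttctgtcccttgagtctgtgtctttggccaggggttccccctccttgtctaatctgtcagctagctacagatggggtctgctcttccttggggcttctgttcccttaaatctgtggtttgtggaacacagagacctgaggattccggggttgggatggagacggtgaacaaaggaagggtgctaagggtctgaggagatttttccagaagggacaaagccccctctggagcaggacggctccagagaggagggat
Spata20: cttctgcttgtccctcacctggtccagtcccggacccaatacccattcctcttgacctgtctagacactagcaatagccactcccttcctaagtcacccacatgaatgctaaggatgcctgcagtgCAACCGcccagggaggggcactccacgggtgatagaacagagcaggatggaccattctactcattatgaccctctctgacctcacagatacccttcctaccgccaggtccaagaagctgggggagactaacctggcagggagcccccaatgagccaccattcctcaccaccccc
Tex19.2: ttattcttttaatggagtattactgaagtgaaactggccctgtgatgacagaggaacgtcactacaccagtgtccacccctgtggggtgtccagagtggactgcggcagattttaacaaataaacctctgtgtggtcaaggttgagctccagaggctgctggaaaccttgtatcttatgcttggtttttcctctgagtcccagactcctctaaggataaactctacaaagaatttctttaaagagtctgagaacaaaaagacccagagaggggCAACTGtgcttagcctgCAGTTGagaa
The motif occurred once in Spata16 and once in Spata20, 2 times in Tex19.2, and not within these letters in Spata21. Over the 70 RefSeq promoters of the 58 genes that had one, 48.6% held it, against 35.0% of all 32851 promoters. The cyclic AMP response element TGACGTCA, the site of the spermatid activator CREM, stood in 1 of the 70 promoters (Spata7, 1.43%, against 1.79% of all promoters). A TATAAA box was found in 7.14%, against 13.6% of all promoters, the E-box CACGTG in 7.14%, against 7.15%, the STRA8 motif CNCCTCAG in 10.0%, against 7.94%, and the motif of the RFX family in 2.86%, against 1.18%. Both strands were searched and overlaps between motifs were not removed. A match describes the letters and shows no binding.

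After filtering, the 2 cKO samples held 7392 and 12885 cells with a median of 3680.5 and 4328 UMIs (counted RNA molecules), and 32 barcodes occurred in both. Cells were clustered jointly without the Tex and Spata genes and classed from marker genes. The classes are spermatogonia-like (344 and 580 cells), leptotene or zygotene spermatocyte-like (729 and 2397), pachytene or diplotene spermatocyte-like (2695 and 3391), round spermatid-like (1014 and 1933), elongating spermatid-like (1013 and 1895), Sertoli-like (310 and 405), Leydig-like (691 and 1539) and macrophage-like (109 and 156). They are called by the plain names below; 487 and 589 cells stayed unnamed. In sample 2, 954 of the leptotene or zygotene cells came from 1 cluster that held 79 cells of sample 1. Levels are CPM, a gene's UMIs scaled to the total UMIs of its class, counted at transcript 3′ ends and so not scaled by length, and pairs of values give sample 1 and then sample 2.

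Most of the genes reached their highest level in spermatids. Of the 65 genes with at least 10 UMIs in both samples, 56 were highest in the same class in both. Elongating spermatids held 26 of them and round spermatids 17, while spermatogonia held 5, leptotene or zygotene spermatocytes 4, pachytene or diplotene spermatocytes 2 and Sertoli cells 2. Thus 46.4% and 30.4% of the genes were highest in elongating and round spermatids, against 15.1% and 17.9% of the 14780 genes of the whole annotation with the same highest class in both samples. The split between the spermatid classes depended on the choice of cells: with doublets kept 22 genes were highest in round and 23 in elongating spermatids. By mean UMIs per cell, which depends on how much RNA a cell yields, 28 genes were highest in round and 17 in elongating spermatids, and 10 in pachytene or diplotene spermatocytes. Together the 66 genes took 0.399% and 0.422% of the UMIs of spermatogonia, 0.644% and 0.650% of those of leptotene or zygotene spermatocytes, 0.756% and 0.776% in pachytene or diplotene spermatocytes, 1.76% and 1.80% in round and 1.88% and 2.01% in elongating spermatids. The 9 detected genes whose highest class differed between samples were Tex15, Tex2, Spata16, Tex9, Spata33, Tex24, Tex14, Spata5 and Tex261. The remaining gene, Spata5l1, had 1 and 12 UMIs in all.

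**Figure D1:**
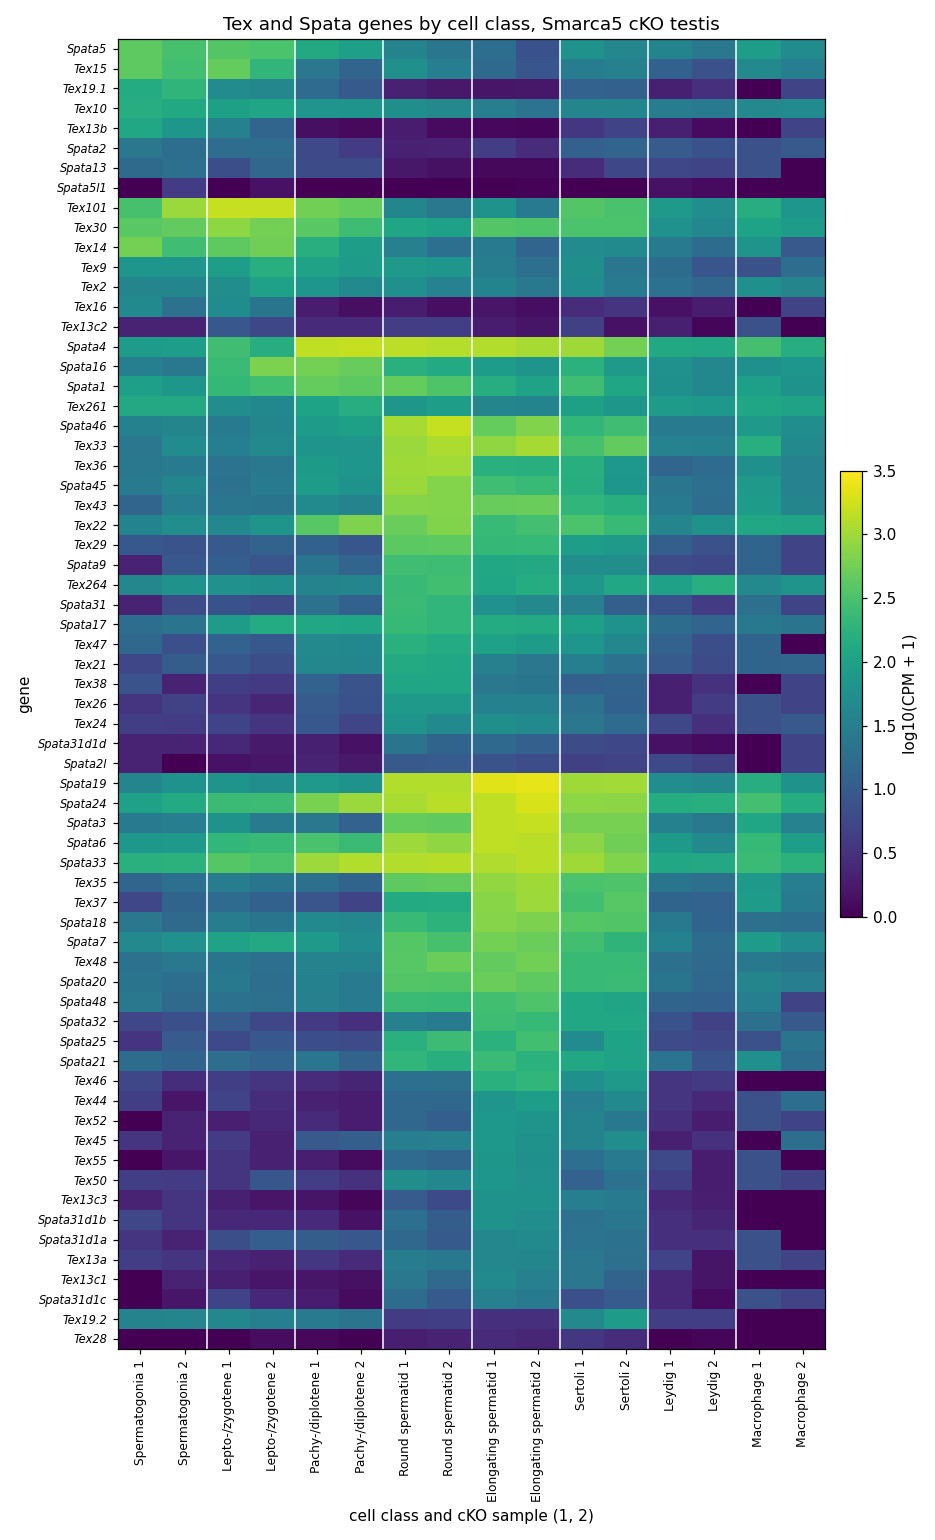
Level of each of the 66 genes (vertical axis, ordered by the class of highest mean level) in 8 cell classes of cKO samples 1 and 2 (horizontal axis), as log10(CPM + 1) in colour. The blocks for round and elongating spermatids hold most genes, and the Sertoli columns show the same genes at a lower level.

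Some genes of known role had an early maximum, while others, given further below, were highest in spermatids. Tex19.1, which restrains transposons in the germ line, stood at 140.4 and 197 CPM in spermatogonia, 47.5 and 40.5 in leptotene or zygotene spermatocytes, 15.8 and 8.81 in pachytene or diplotene spermatocytes and 1.09 and 0.731 in round spermatids. Tex15, which links piRNAs to DNA methylation of transposons, had 431 and 272 CPM in spermatogonia and 473 and 198 in leptotene or zygotene spermatocytes, and 23.4 and 12.7 in pachytene or diplotene spermatocytes. Both were low after zygotene in both samples, and the values of these stages did not overlap with the earlier ones. Tex14, which keeps the bridges between sister germ cells from closing, had 589 and 268 CPM in spermatogonia, 429 and 545 in leptotene or zygotene spermatocytes and 158 and 87.6 in pachytene or diplotene spermatocytes, with the order of the earliest pair of classes differing between samples. Tex10, part of a complex that matures ribosomal RNA, was highest in spermatogonia at 148 and 134 CPM and lower in each later germ cell class, at 97.1 and 114 in leptotene or zygotene spermatocytes and 55.0 and 43.3 in round spermatids. Spata5, an AAA ATPase of ribosome maturation, had 429 and 302 CPM in spermatogonia and 365 and 324 in leptotene or zygotene spermatocytes, with 17.2 and 6.64 in elongating spermatids. Spata2, which ties the deubiquitinase CYLD to the linear ubiquitin ligase, was low throughout, at 23.2 and 17.2 CPM in spermatogonia, and so was Spata13, at 15.1 and 18.4.

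Of 64 genes tested, 14 rose and 3 fell in leptotene or zygotene spermatocytes relative to spermatogonia (edgeR quasi-likelihood, Benjamini-Hochberg adjusted p under 0.05), against 17.8% and 19.0% of all 18845 genes. The median log2 change was 0.20 for the Tex and Spata genes and 0.04 for all genes. With doublets kept 13 rose and 11 fell, against 17.5% and 18.6% of all genes, and the medians were -0.07 and -0.04. Log2 changes include edgeR's TMM scaling between classes and so differ from plain ratios of CPM. With DESeq2's size factors in place of TMM the median of all genes was -0.10 at the pachytene or diplotene step, 0.38 at the elongating step and 0.35 between germ and somatic cells, with 0.22, 0.64 and 1.02 for the Tex and Spata genes. Spata16, a Golgi protein of the forming acrosome, had 240.2 and 644 CPM in leptotene or zygotene spermatocytes, against 31.3 and 24.6 in spermatogonia, log2 change 4.06 ± 0.38 SE, adjusted p = 4.5e-20. Spata17 rose (log2 change 2.58 ± 0.37 SE, adjusted p = 7.5e-10) and so did Spata31d1a (log2 change 2.42 ± 0.70 SE, adjusted p = 0.0027). Tex13b fell (log2 change -2.14 ± 0.38 SE, adjusted p = 6.3e-07), as did Tex19.1 (log2 change -1.91 ± 0.35 SE, adjusted p = 1.1e-06) and Tex261, a protein of export from the endoplasmic reticulum (log2 change -1.41 ± 0.33 SE, adjusted p = 1.8e-04). Among related genes, 7 of 11 of a transposon silencing list rose and 1 fell, Piwil4, the nuclear PIWI protein MIWI2, with no UMI in leptotene or zygotene spermatocytes, where 3 UMIs would give 1.5 and 0.463 CPM, against 9.28 and 6.15 CPM in spermatogonia. Of 10 genes of sperm surface proteins that mature in the testis, 5 rose, the largest being Adam2, a sperm surface ADAM protein, at 314 and 439 CPM in leptotene or zygotene spermatocytes, against 42.9 and 45.5 in spermatogonia (log2 change 3.16 ± 0.35 SE, adjusted p = 6.0e-15).

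Tex101 and Tex30 were highest in leptotene or zygotene spermatocytes. Tex101, a germ cell surface protein needed to mature sperm ADAM proteins, had 306 and 952 CPM in spermatogonia, 1537 and 1577 in leptotene or zygotene spermatocytes, 565 and 463 in pachytene or diplotene spermatocytes and 39.4 and 24.4 in round spermatids. Tex30 had 813 and 589 CPM there and 118 and 99.4 in round spermatids, and 364 and 346 in elongating spermatids. Its level in round spermatids lay below both neighbouring classes in both samples. Tex13c2 was highest in the same class, at 8.01 and 4.79 CPM.

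From leptotene or zygotene to pachytene or diplotene spermatocytes, 28 genes rose and 10 fell of 64, against 29.5% and 24.9% of all genes. With DESeq2's size factors 24 rose and 14 fell, against 25.7% and 29.2% of all genes. The median change was 0.42 for the Tex and Spata genes and 0.09 for all genes, and for the Tex and Spata genes 0.87 in sample 1 and 0.18 in sample 2. With doublets kept 12 rose and 19 fell, with a median of -0.43, against 22.2% and 28.2% of all genes and a median of -0.24. With cells of at least 2000 UMIs 10 of 65 rose and 6 fell, with a median of -0.02. Of all genes 23.6% then rose and 20.4% fell, with a median of -0.05. Thus neither the counts nor the direction of the median held across these choices of cells. Spata4 made the highest level of this class among the genes that peaked there, with 1464 and 1566 CPM in pachytene or diplotene spermatocytes, against 265 and 152 in leptotene or zygotene spermatocytes (log2 change 3.497 ± 0.35 SE, adjusted p = 6.3e-19). Spata4 then stayed high, at 1396 and 1282 CPM in round and 1242 and 1098 in elongating spermatids. Spata1 had 467 and 416 CPM in pachytene or diplotene spermatocytes and 462 and 345 in round spermatids. Tex22 rose to 387 and 667 CPM, against 42.0 and 64.4 (log2 change 3.89 ± 0.35 SE, adjusted p = 5.8e-22), and Tex45 to 8.57 and 10.5, against 3.00 and 1.08 (log2 change 3.17 ± 0.48 SE, adjusted p = 2.4e-09). The largest falls were in Tex13b (log2 change -5.46 ± 0.48 SE, adjusted p = 1.8e-22), Tex16 (log2 change -5.22 ± 0.46 SE, adjusted p = 2.5e-22) and Tex15 (log2 change -3.59 ± 0.34 SE, adjusted p = 1.2e-20). Of 10 acrosome genes, 7 rose. The largest changes among the related genes were Tex11, an X-linked gene of meiotic recombination, at 1.30 and 1.25 CPM in pachytene or diplotene spermatocytes, against 120.1 and 61.8 in leptotene or zygotene spermatocytes (log2 change -5.48 ± 0.40 SE, adjusted p = 1.1e-29), and Gk2, a glycerol kinase of the mitochondrial sheath, at 511 and 579.8, against 69.1 and 47.6 (log2 change 3.86 ± 0.35 SE, adjusted p = 1.2e-21).

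The step into round spermatids moved more of the genes than any other step tested. There 47 of 64 genes rose and 9 fell in round spermatids relative to pachytene or diplotene spermatocytes, against 36.5% and 25.4% of all genes, and all 64 moved in the same direction in both samples. The median log2 change was 3.73, against 0.26 for all genes. Tex29 had 410.1 and 434 CPM in round spermatids, against 11.2 and 7.62 in pachytene or diplotene spermatocytes (log2 change 6.13 ± 0.38 SE, adjusted p = 1.6e-38). Spata25 had 166 and 250.4 CPM, against 5.97 and 5.43 (log2 change 5.75 ± 0.38 SE, adjusted p = 2.2e-36), and Tex13c1 had 23.3 and 15.1, against 0.648 and 0.416 (log2 change 5.74 ± 0.43 SE, adjusted p = 4.3e-30). These genes were low in both samples before the spermatid stage. They were picked as the largest rises that moved alike in both samples, so the lack of overlap follows from that choice. The falls were led by Tex101 (log2 change -3.43 ± 0.34 SE, adjusted p = 2.9e-19), Tex19.1 (log2 change -3.16 ± 0.43 SE, adjusted p = 8.7e-12) and Spata13 (log2 change -2.76 ± 0.52 SE, adjusted p = 7.2e-07). Among the genes that peaked in round spermatids, Spata46, a nuclear envelope protein of the sperm head, had the highest level, at 1108 and 1532 CPM in round spermatids and 466 and 681 in elongating spermatids. Tex33 followed at 935 and 1168, Tex36 at 1010.2 and 1047 and Spata45 at 939 and 718 CPM in round spermatids. Tex264, a receptor for autophagy of the endoplasmic reticulum that is also used outside the testis, had 229 and 271 CPM in round spermatids, with 99.7 and 154 in Leydig cells. Tex2, a lipid transfer protein of the endoplasmic reticulum, was detected in every class, with 52.0 and 98.4 CPM in leptotene or zygotene spermatocytes, 67.9 and 44.7 in pachytene or diplotene spermatocytes and 36.6 and 24.1 in elongating spermatids.

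Of lists of related genes, all 8 genes of head-to-tail coupling and sperm tail rose in round spermatids. In the mitochondrial sheath list 4 of 6 rose and 1 fell, in the acrosome list 6 of 10 rose and 2 fell, and in the intercellular bridge list 1 of 7 rose and 5 fell, beside 36.5% of all genes that rose and 25.4% that fell. The largest changes were in Calr3, a testis chaperone of sperm surface proteins, at 91.8 and 78.3 CPM in round spermatids, against 3.38 and 1.61 in pachytene or diplotene spermatocytes (log2 change 5.74 ± 0.38 SE, adjusted p = 8.5e-36), and Spem1, needed to strip cytoplasm from spermatids, at 92.6 and 94.7, against 6.34 and 2.39 (log2 change 5.16 ± 0.38 SE, adjusted p = 1.6e-31).

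**Figure D2:**
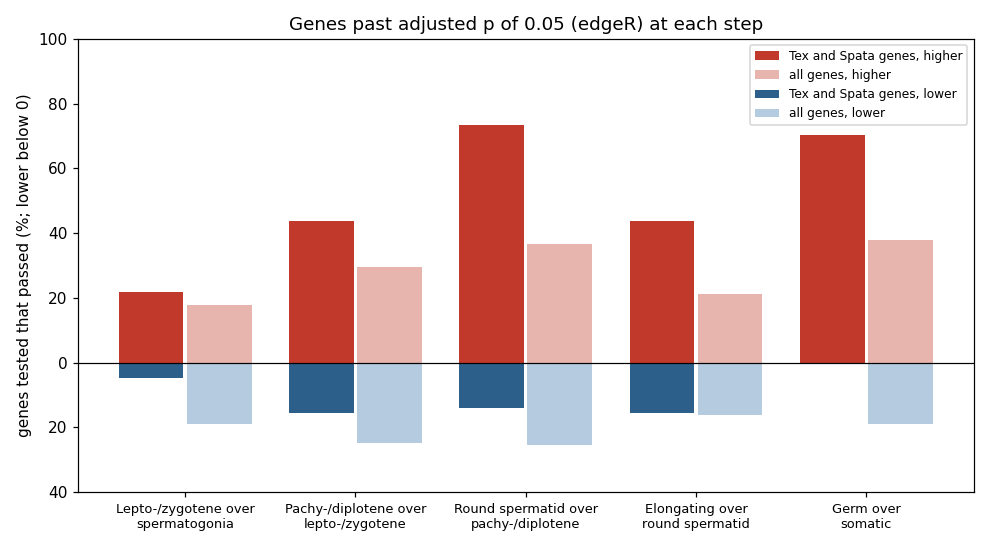
Share of tested genes (vertical axis, %) that were higher (above 0) or lower (below 0) at an edgeR adjusted p under 0.05 in each comparison of cell classes (horizontal axis), for the 64 Tex and Spata genes tested (dark bars) and all 18845 genes (pale bars). The widest gap above 0 is at the step into round spermatids, with 47 of 64 genes against 36.5% of all genes.

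In elongating spermatids relative to round spermatids, 28 of 64 genes rose and 10 fell, against 21.1% and 16.1% of all genes, with a median of 0.40 and 0.14. With DESeq2's size factors 30 rose and 9 fell, against 27.0% and 12.4% of all genes. With doublets kept 19 rose and 21 fell, with a median of -0.04, and with coarser clusters 24 rose and 19 fell, with a median of -0.15, so the direction of the median did not hold. With cells of at least 2000 UMIs 26 rose and 19 fell, with a median of 0.17. Under each of these choices of cells and clusters, a cluster that scored closest to elongating spermatids stayed unnamed, so the elongating class held other cells. With coarser clusters this cluster had 309 and 748 cells. The elongating class then had 712 and 1154 cells, against 1013 and 1895. The part of this change in the medians was not tested. Tex46 had 165 and 201 CPM in elongating spermatids, against 17.9 and 18.8 in round spermatids (log2 change 3.90 ± 0.34 SE, adjusted p = 3.4e-22). Tex13c3 (log2 change 3.76 ± 0.37 SE, adjusted p = 8.5e-19) and Spata32 (log2 change 3.62 ± 0.34 SE, adjusted p = 1.5e-20) also rose. Tex36 fell to 168 and 155 CPM in elongating spermatids, against 1010.2 and 1047 in round spermatids (log2 change -2.11 ± 0.32 SE, adjusted p = 3.0e-09). Tex38 fell (log2 change -1.78 ± 0.33 SE, adjusted p = 1.4e-06), and Tex13c2, at under 4 CPM in both classes, fell as well (log2 change -1.70 ± 0.58 SE, adjusted p = 0.012; 0.13 with DESeq2). Spata19, which builds the mitochondrial sheath of the sperm tail, reached the highest level of all 66 genes, with 74.0 and 61.3 CPM in pachytene or diplotene spermatocytes, 1234 and 1266 in round and 2122 and 2376 in elongating spermatids. Spata24 had 1475 and 1944 CPM in elongating spermatids and Spata3 1465 and 1564. Spata6, which forms the connecting piece of head and tail, had 1469 and 1357 CPM there and 71.9 and 76.8 in spermatogonia. Spata18, a factor of mitochondrial quality control, had 725 and 645 CPM in elongating spermatids, Spata20 501 and 434 and Spata7, known from the connecting cilium of photoreceptors, 582 and 496. Spata2l, the paralog of Spata2, had its higher values in spermatids, at 8.48 and 9.26 CPM in round spermatids, whereas Spata2 had 1.09 and 1.14. Of the acrosome list 6 of 10 genes fell, and of the tail list 6 of 8 rose and 2 fell. Zpbp2, an acrosome protein that binds the egg coat, had 46.5 and 22.3 CPM in elongating and 371 and 357 in round spermatids (log2 change -2.95 ± 0.34 SE, adjusted p = 1.2e-14), and Plk1, a kinase of cell division, 3.93 and 3.35, against 40.1 and 51.2 (log2 change -3.09 ± 0.38 SE, adjusted p = 4.1e-13).

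**Figure D3:**
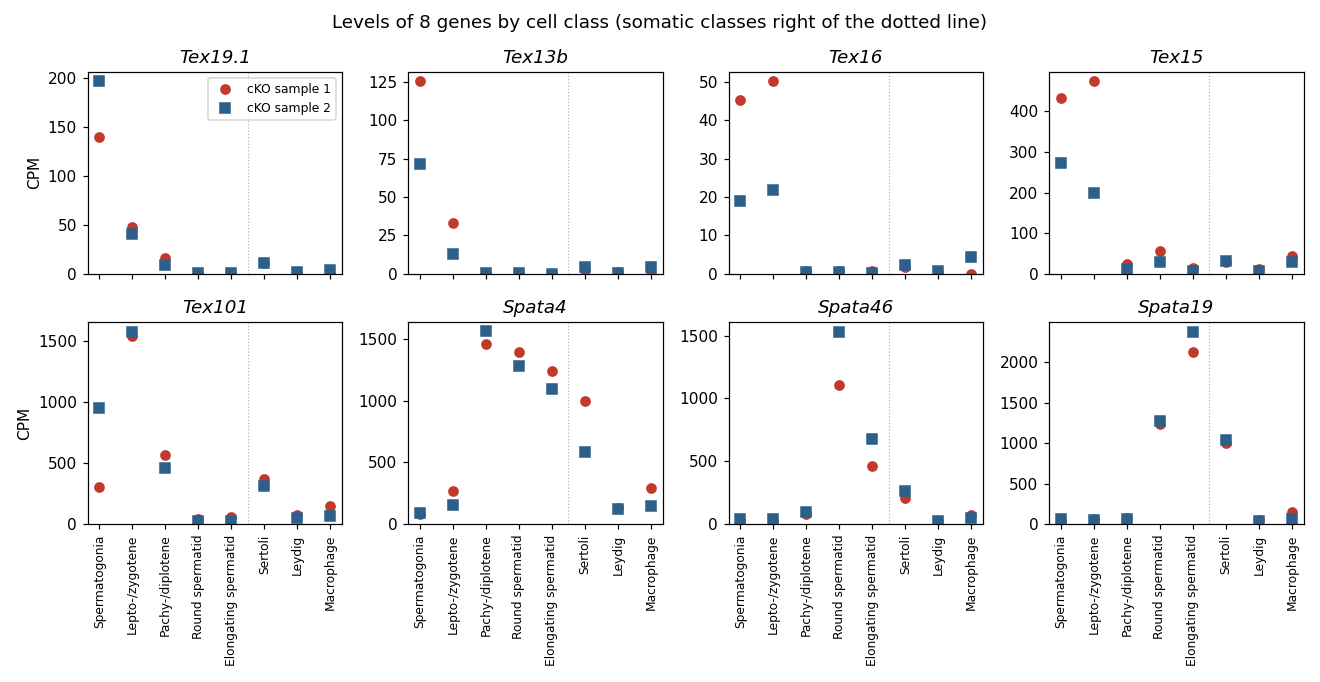
Level in CPM (vertical axis, from 0) of 8 genes in the 8 cell classes (horizontal axis), 1 point per cKO sample. Tex19.1, Tex13b, Tex16 and Tex15 are high before pachytene, Tex101 in leptotene or zygotene spermatocytes, Spata4 from pachytene on, and Spata46 and Spata19 in spermatids.

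Spermatid genes were also read in the Sertoli class. Over the 26 genes highest in elongating spermatids, the level in Sertoli cells was 47.0% of that in elongating spermatids at the median in sample 1 (16.9% to 57.2%) and 40.8% in sample 2 (31.9% to 85.3%). In Leydig cells the medians were 3.62% and 1.81%. The 11 markers of elongating spermatids, none of which was at 0 in Sertoli or Leydig cells, took 5.41% and 5.17% of UMIs in Sertoli cells, against 0.277% and 0.211% in Leydig cells and 13.0% and 13.6% in elongating spermatids. Their part in the Sertoli values of the Tex and Spata genes was not tested. The 11 Sertoli markers took less of the Sertoli class than these spermatid markers, at 0.486% and 1.42% of its UMIs. In Leydig cells the Sertoli markers took 0.349% and 0.352%. Levels given for Sertoli cells are therefore those of a class with much spermatid RNA. Barcodes of sample 1 with 10 to 100 UMIs, which belong to no cell class, had 519 CPM of Spata19 and 513 CPM of Spata6. Spata19 had 38.3 and 62.7 CPM in spermatogonia and 51.1 and 43.4 in Leydig cells, and Spata6 71.9 and 76.8 in spermatogonia. The part of free RNA in such low values was not tested, and sample 2 holds no such barcodes. Tex19.2, the neighbour and paralog of Tex19.1, was highest in Sertoli cells, at 43.7 and 82.6 CPM, with 35.96 and 38.1 in spermatogonia and 3.51 and 3.53 in Leydig cells. Tex28 had 3 and 4 UMIs in Sertoli cells, which is at the limit of detection, so its class is not established.

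Relative to the mean of the 3 somatic classes, the mean of the 5 germ cell classes was higher for 45 of 64 genes and lower for 0 (edgeR; 0 also at an unadjusted p under 0.05, and 36 higher and 0 lower with DESeq2), against 37.9% of all genes higher and 3603 of 18845 lower. The median was 1.32, against 0.65 for all genes. With DESeq2, 25.2% of all genes were higher and 27.0% lower. With DESeq2's size factors 39 were higher and 0 lower, against 27.1% and 23.0% of all genes. With doublets kept, when a peritubular class entered the somatic side, 16 were higher and 24 lower, against 26.4% and 20.8% of all genes. The 3 largest rises were Tex19.2 (log2 change 3.16 ± 1.02 SE, adjusted p = 0.0049), Spata31d1b (log2 change 2.89 ± 1.22 SE, adjusted p = 0.035) and Tex46 (log2 change 2.74 ± 1.24 SE, adjusted p = 0.048), and each lost its call or turned in direction in some of the other settings. The comparison averages logged levels over Sertoli, Leydig and macrophage cells, so a gene that is high in Sertoli cells alone, such as Tex19.2, can stand as higher in germ cells. Of the related genes, Cep55, a midbody protein that TEX14 binds, had log2 change 2.84 ± 0.32 SE, adjusted p = 3.5e-15, and Tmem95, a sperm protein of egg fusion, log2 change 3.07 ± 1.28 SE, adjusted p = 0.032.

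Of the X-linked genes, 2 were high before pachytene and 3 in spermatids. Tex13b (X, 140808307 to 140813433, mm10) had 125 and 71.3 CPM in spermatogonia, 33.0 and 12.8 in leptotene or zygotene spermatocytes and 0.371 and 0.234 in pachytene or diplotene spermatocytes. Tex16 (X, 111896766 to 112127326) had 45.2 and 19.06, 50.04 and 21.8 and 0.834 and 0.390 CPM in the same order, and neither gene passed 1 CPM in spermatids of either sample. By contrast Tex13a had 2.64 and 1.72 CPM in pachytene or diplotene spermatocytes and 40.5 and 39.5 in elongating spermatids, Tex13c1 0.648 and 0.416 and 46.7 and 32.5, and Tex13c3 0.602 and 0.130 and 60.8 and 60.3. The level in spermatids was above that in pachytene or diplotene spermatocytes in both samples for each of these 3 genes. Tex28 stayed under 3 CPM in every class. The reference gave no position for Tex13c2.

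Most of the genes had accessible chromatin nearby in every library. Of 65 genes with a position, 56 and 58 had a peak within 5 kb in 4C cKO, 56 and 55 in 4C WT, 56 and 52 in cKIT+ cKO and 47 and 54 in cKIT+ WT. These are 72.3% to 89.2% of the genes, beside 70.7% to 82.8% of all 26656 genes with a position. A total of 43 genes had a peak in all 8 libraries, beside 63.6% of all genes, and Spata31d1c had one in none. Between genotypes the number of genes with a peak did not differ beyond the spread, at 57.0 ± 1.41 in 4C cKO and 55.5 ± 0.707 in 4C WT (SD, n = 2 each; two-sided exact permutation p = 0.667). It was 54.0 ± 2.83 in cKIT+ cKO and 50.5 ± 4.95 in cKIT+ WT (SD, n = 2 each; exact p = 0.667). With 2 libraries against 2, no exact p can go below 0.333. The peak list of cKIT+ WT replicate 1 is the shortest, with 44697 peaks, against 112518 to 127222 in the other cKIT+ libraries; without it the difference at cKIT+ was 0. The 4C lists held 54059 to 59417 peaks, and the depth of the libraries is unknown.

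At the promoter itself the sorted stages differed. Of 57 genes, 36 and 38 had a peak over the promoter in 4C cKO, 36 and 32 in 4C WT, 29 and 26 in cKIT+ cKO and 25 and 28 in cKIT+ WT. Every 4C library lay above every cKIT+ library, with a mean of 35.5 ± 2.52 in 4C and 27.0 ± 1.83 in cKIT+ (SD, n = 4 each; exact two-sided permutation test, p = 0.0286, which is the lowest value that 70 arrangements can give). This measure was added after the peaks near genes had been seen, and those, at 56.2 ± 1.26 in 4C and 52.2 ± 3.86 in cKIT+ (SD, n = 4 each), gave an exact p of 0.114. Over all 20267 genes with a promoter the share covered was 56.8% ± 0.934 in 4C and 58.9% ± 5.71 in cKIT+ (SD, n = 4 each; exact permutation p = 0.6). With lists cut to equal length, however, the 4C share of all genes was higher too, by 5.88 percentage points (exact permutation p = 0.0286), beside 19.7 percentage points for the Tex and Spata genes. With peaks of −log10 q of at least 5 alone, the gap shrank to 26.5 genes in 4C and 22.75 in cKIT+ (exact permutation p = 0.0286). That is 6.58 percentage points, beside -2.15 for all genes. The exact tests of stage exchanged labels across libraries of both genotypes, so genotype was not held fixed. Sorts were prepared as separate libraries, so stage and preparation cannot be told apart.

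**Figure D4:**
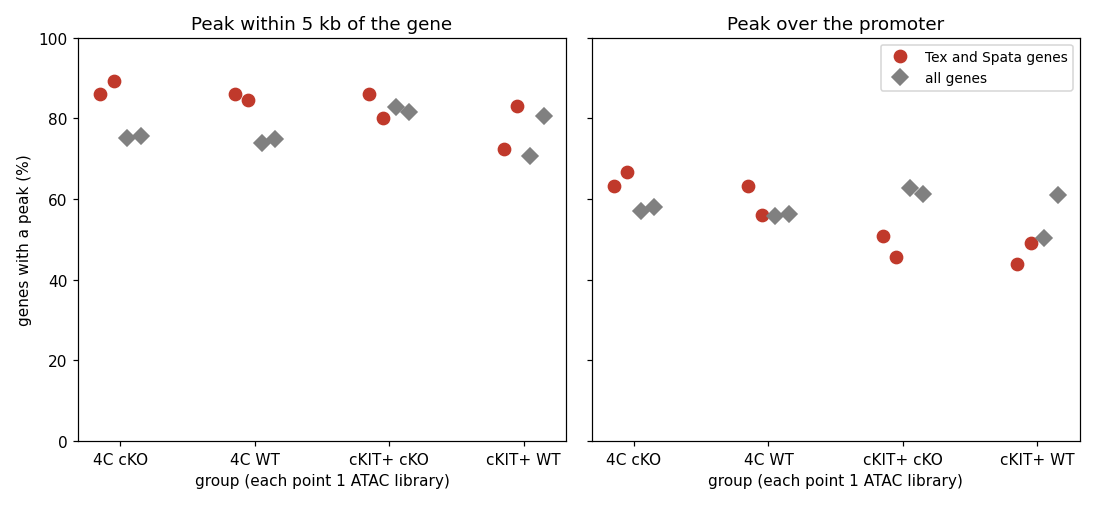
Share of genes with a peak (vertical axis, %) within 5 kb of the gene (left) and over the promoter (right) in each ATAC library, for the Tex and Spata genes (circles) and all genes (diamonds), by group (horizontal axis). Over promoters the 4 4C libraries hold 32 to 38 of 57 Tex and Spata genes and the 4 cKIT+ libraries 25 to 29.

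Of the 37 promoters of genes that are highest in spermatids, 19 and 21 were covered in 4C cKO, 19 and 15 in 4C WT, 12 and 9 in cKIT+ cKO and 8 and 11 in cKIT+ WT, a mean of 18.5 ± 2.52 in 4C and 10.0 ± 1.83 in cKIT+ (SD, n = 4 each; exact permutation p = 0.0286). Among all 3229 spermatid genes with a promoter the share was 45.3% ± 1.77 in 4C and 42.7% ± 4.95 in cKIT+ (SD, n = 4 each; exact permutation p = 0.457), and 11.2 percentage points higher in 4C with lists of equal length (exact permutation p = 0.0286). At −log10 q of at least 5 the means for the 37 promoters were 10.25 in 4C and 6.75 in cKIT+. The shares of all spermatid genes were then 31.2% and 30.2%. Of the 11 genes that are highest before the spermatid stage, 10 have a position and a promoter, and 9 of these promoters were covered in all 8 libraries, beside 78.3% of all 4754 such genes. The promoters of these early genes were also richer in CpG, with a median of 20 CpG in 300 bases over 12 promoters, against 4 over 47 promoters of the spermatid genes and 7 over all promoters. Promoters were covered in more 4C than cKIT+ libraries for 17 of 57 genes, beside 9.79% of all genes, and in more cKIT+ than 4C libraries for 3, beside 12.6%. A total of 23 were covered in all 8, beside 45.7% of all genes. Among the 17, Spata19 (chromosome 9, 27396807 to 27401711) had a promoter peak of 3.86- and 3.71-fold over local background in 4C cKO, 3.57-fold in 1 of 2 4C WT libraries and none in cKIT+ libraries. Spata16 (chromosome 3, 26637620 to 26983249), whose promoter is printed above, had 4.89 and 3.94 in 4C cKO and 4.69 and 6.09 in 4C WT. Spata21 had 5.41 and 5.27 in 4C cKO and 4.70 and 5.17 in 4C WT, and Spata20 had 4.44 and 4.74 in 4C cKO and 4.595 and 5.15 in 4C WT. Tex19.2, printed beside them, had 6.87 and 6.65 in cKIT+ cKO and 4.58 and 4.47 in cKIT+ WT. Its neighbour Tex19.1 (chromosome 11, 121146143 to 121148314) had a promoter peak in all 8 libraries, of 7.01 and 6.89 in 4C cKO, 7.04 and 7.41 in 4C WT, 11.7 and 11.1 in cKIT+ cKO and 6.64 and 6.93 in cKIT+ WT. Folds are the authors' own values per peak and are not compared between libraries. Tex47 (chromosome 5, 7304106 to 7318290) was the only gene with a peak within 5 kb in all 4C libraries and in no cKIT+ library, beside 0.623% of all genes.

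Peak patterns of single genes differed between genotypes in 4C cells. Tex28 (X, 74150909 to 74167838) and Tex13a (X, 138208158 to 138209580) had no peak within 5 kb in either 4C cKO library, against 1 and 2 peaks and 1 and 1 peaks in 4C WT. Such a loss was seen for these 2 of 65 genes, beside 0.878% of all genes, and the reverse for 0, beside 1.17%. With peak lists of equal length it was seen for 1 gene. At cKIT+ both counts were 0, beside 0.203% of all genes for a loss and 1.35% for the reverse. Of the 6 X-linked genes with a position, 3 and 3 had a peak in 4C cKO and 6 and 5 in 4C WT, while in cKIT+ libraries 3 and 2 had one in cKO and 2 and 2 in WT. The 996 X-linked genes as a whole moved the same way in 4C cells, with 74.1% and 76.0% near a peak in cKO and 89.8% and 91.4% in WT, and the exact p for 2 libraries against 2 is 0.333 at best. Tex16 had 1 and 5 peaks in 4C cKO, against 11 and 19 in 4C WT, and 1 in every cKIT+ library.

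Counting peaks, 6 of 65 genes had fewer in both 4C cKO libraries than in either 4C WT library, beside 5.11% of all genes, and 3 had more, beside 8.19%. Besides Tex28, Tex13a and Tex16, the genes with fewer were Spata17, Spata16 and Spata1. Spata17 (chromosome 1, 187009614 to 187215511) had 2 and 3 peaks in 4C cKO, against 8 and 8 in 4C WT, and 1 and 2 in cKIT+ cKO, against 7 and 4 in cKIT+ WT. Spata1 (chromosome 3, 146457202 to 146499793) had 2 and 2 in 4C cKO, against 5 and 6 in 4C WT, and 1 and 1 in cKIT+ cKO, against 3 and 2 in cKIT+ WT. These were the 2 genes with fewer peaks in cKO at both stages. At cKIT+ alone, fewer peaks in cKO were found in 0.765% of all genes. The share of all genes with fewer peaks at both stages was not counted, so the 2 genes have no background. Spata16 had 5 and 6 peaks in 4C cKO, against 22 and 11 in 4C WT, and 7 and 2 in cKIT+ cKO, against 1 and 3 in cKIT+ WT, where the groups overlap. The 3 genes with more peaks in 4C cKO were Tex9, Tex264 and Tex2, the last with 9 and 10, against 4 and 4 in 4C WT. At cKIT+ 13 genes had more peaks in cKO, beside 20.1% of all genes. The promoters of Spata17 and Spata1 were covered in all 8 libraries, so the missing peaks lie elsewhere in or near these genes.

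**Figure D5:**
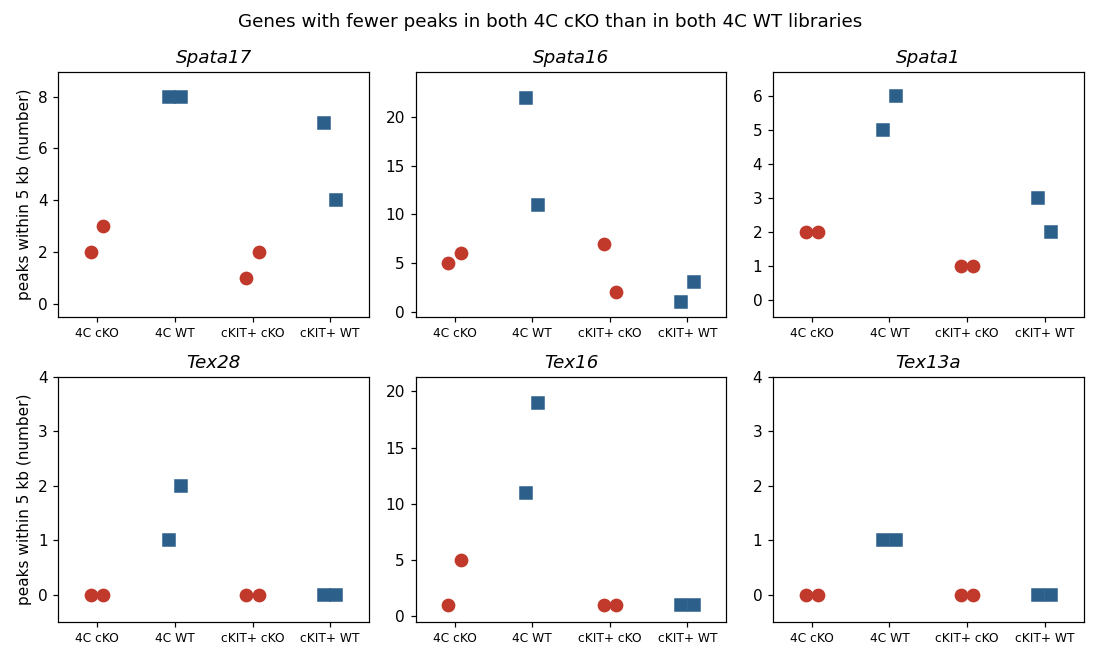
Number of peaks within 5 kb (vertical axis) of the 6 genes with fewer peaks in both 4C cKO than in both 4C WT libraries, by group (horizontal axis), 1 point per library, circles for cKO and squares for WT. Spata17 and Spata1 are lower in cKO at both stages, Tex16 has 1 and 5 peaks in 4C cKO against 11 and 19 in 4C WT.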

How the data were processed

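The members and gene lists were chosen with earlier results of these data known. Single-cell UMI counts were deposited by the authors as raw matrices made with Cell Ranger 7.1.0 and 9.0.1, per the file headers. The deposited peak lists hold the authors' fold enrichment (a ratio), score, −log10 p and −log10 q per peak, in mm10; the submitters' processing notes name cutadapt, Bowtie2 and MACS2. Sample 1 held 987771 barcodes and 63605819 UMIs, sample 2 17744 barcodes, none under 500 UMIs, and 115830234 UMIs. Cells with at least 1000 UMIs, 500 genes and at most 10% mitochondrial UMIs were kept (8098 and 14262), Scrublet doublets were removed (706 and 1377), and cells were clustered with scanpy 1.11.5 and Leiden at resolution 1. UMIs were summed per class and sample and tested with edgeR 4.0.16 (TMM, filterByExpr, quasi-likelihood, sample as a block, Benjamini-Hochberg over 18845 genes). Classes of 1 sample come from 1 cell suspension, which pairs them; deviations correlated from −0.01 to 0.35. On simulated data 198 of 200 changed genes were recovered, with 6 false calls, at the step into round spermatids. The changes there were 2 in log2 and given only to genes above a minimum level. All other genes had 1 level in every class, dispersion was fixed and samples did not differ. These rates therefore do not carry over to the real data, where many genes change and some are near the floor. A peak counted when it overlapped a gene and 5 kb on each side, or its promoter, by 1 base; libraries were compared by two-sided exact permutation.

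Genes were named by rule: the 4 highest genes per class, the 3 largest rises and falls per comparison that moved alike in both samples, genes with a peak in both libraries of 1 genotype and neither of the other, X-linked genes, genes of known role, and the 2 largest changes of related genes per step. Genes named for promoter cover or peak numbers were chosen after their values were seen. Alternatives were DESeq2 1.42.0 and its size factors, no filter, doublets kept, at least 2000 UMIs, Leiden resolution 0.6, no block, stricter or equal-length peak lists, other windows and leaving out each library. Counting error alone limits low values.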

Additional observations from a re-analysis of the deposited data

Results flagged for a closer look

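The number of peaks within 5 kb of the Tex and Spata genes, summed over genes, went in opposite directions between genotypes at the sorted stages. It was 127 and 138 in 4C cKO, against 151 and 154 in 4C WT, a difference of -20.0, and 206 and 196 in cKIT+ cKO, against 98 and 194 in cKIT+ WT, a difference of 55.0. The groups do not overlap at either stage. The differences of the stages differ by -75.0 (exact permutation over 36 arrangements, p = 0.0556). That is the lowest value that 36 arrangements can give, so this test could not pass 0.05. The value at cKIT+ rests on replicate 1 of cKIT+ WT, the shortest list with 44697 peaks, without which it is 7. With lists of equal length the difference at cKIT+ turned negative, as given below, so the opposite directions did not hold there. Single genes weighed heavily in both sums. At 4C, Spata16 had 5 and 6 peaks in cKO, against 22 and 11 in WT. Tex16 had 1 and 5, against 11 and 19. Of 65 genes, 6 had fewer peaks in both 4C cKO libraries and 3 had more. At cKIT+, Spata13 had 34 and 33 in cKO, against 6 and 37 in WT. The sums therefore do not show a shift of the whole set, and the same sum over all genes was not tested.

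Barcodes of sample 1 with 10 to 100 UMIs, which are outside every cell class, gave 0.982% of their 1078100 UMIs to the 66 genes. That is above the share in spermatogonia, in both spermatocyte classes (0.756% and 0.776% in pachytene or diplotene cells), in Leydig cells and in macrophages (0.335% and 0.197%). Sertoli cells had 1.11% and 0.969%, and both spermatid classes lay above it. Sample 2 holds no such barcodes.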

How the results depend on the processing

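Of the 24 Tex and Spata changes named at the 4 germ cell steps, 24 kept their direction and 23 their call under every alternative that gave a test. These were chosen as the largest called changes that moved alike in both samples, so their stability does not describe the other genes. With doublets kept, 11 genes fell at the leptotene or zygotene step, 12 rose and 19 fell at the pachytene or diplotene step, 21 fell in elongating spermatids, and 16 were higher and 24 lower in germ than in somatic cells. With at least 2000 UMIs these were 10 and 6 at the pachytene or diplotene step, 19 fallen in elongating spermatids and 3 lower in germ cells. Of all genes 26.7% were then lower in germ cells. At resolution 0.6, 19 fell in elongating spermatids. With no spermatogonia class there, the first step and the germ and somatic comparison were not run. Shares of all genes for the other counts are given with each step above. Germ over somatic changes turned to -0.25 for Tex19.2 and -0.28 for Tmem95 at 2000 UMIs, and to -0.69 for Spata31d1b, -1.49 for Tex46 and -0.67 for Tmem95 with doublets kept. Round and elongating spermatids held the highest level of 22 and 23 genes with doublets kept, 20 and 25 at 2000 UMIs and 21 and 25 at resolution 0.6. In other classes, the number of genes highest in a class became 2 (leptotene or zygotene) and 0 (Sertoli) with doublets kept, 1 (pachytene or diplotene) and 1 (Sertoli) at 2000 UMIs, and 11 (leptotene or zygotene), 1 (pachytene or diplotene) and 1 (Sertoli) at resolution 0.6. By mean UMIs per cell it was 2 in spermatogonia, 1 in leptotene or zygotene and 10 in pachytene or diplotene spermatocytes, 28 in round and 17 in elongating spermatids, and 0 in Sertoli cells. The cause was not tested.

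For genes with a peak, 4C cKO minus WT was -1.5 at −log10 q of at least 5, and 4C minus cKIT+ was 9.25 with lists of equal length, 5.25 within 1 kb and 8.5 over promoters. For peaks near the genes, lists of equal length gave -1.0 for cKIT+ cKO minus WT, -9.0 over both stages and 18.5 for 4C minus cKIT+, and gene ends within 1 kb gave 3.5 for 4C minus cKIT+. Genes with a peak in cKO alone at cKIT+ numbered 3 at the stricter q, and at 4C 2 for gene ends and 1 for promoters. Genes with a peak in WT alone at 4C numbered 1 with equal lists, within 1 kb or at gene ends, and 0 over promoters. With equal lists the promoter share, 4C minus cKIT+, was 5.88 percentage points for all genes and 11.2 for all spermatid genes.

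Leaving out each library in turn, genes with a peak differed by 0.5 to 2.50 (4C, cKO minus WT), 0 to 7 (cKIT+), 0.750 to 4.25 (both) and 2.25 to 5.25 (4C minus cKIT+), and peaks near the genes by -25.5 to -14.5, 7 to 103, -6.50 to 41.5 and -56.2 to -20.2 in the same order. Genes with a peak in cKO alone numbered 0 to 3 at 4C and 0 to 7 at cKIT+, and in WT alone 2 to 3 and 0 to 2. Promoter differences, 4C minus cKIT+, were 7.67 to 9.67 for the Tex and Spata genes and for those highest in spermatids, -4.92 to -0.812 percentage points for all genes and 0.222 to 3.98 for all spermatid genes. Without cKIT+ cKO replicate 2 or cKIT+ WT replicate 1 the exact permutation p for promoters was 0.0571. Median log2 changes were 0.11 to 0.39, 0.18 to 0.87, 3.42 to 3.89, 0.27 to 0.53 and 1.10 to 1.54 over the 5 comparisons. With the replicate block, the exact permutation p was 1.00 for 4C cKO minus WT (1.5), 0.5 over both stages (2.50) and 0.250 for 4C minus cKIT+ (4.00); cKIT+ gave 3.5. Without the block of sample, 45 genes rose and 9 fell at the step into round spermatids, against 34.2% and 23.0% of all genes.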
